A study of Homo sapiens with 4 samples.

Results

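The genes described here carry cholesterol out of cells or belong to the liver X receptor (LXR) pathway: ABCA1, ABCG1, APOE, MYLIP, NR1H2, NR1H3, CYP27A1, SCARB1 and NCEH1. The list of symbols was drawn up with earlier results of these data known, and all 9 were found, each on 1 row, among 60595 genes of a table of RNA sequencing values. The cells were A375, an established human melanoma line, labelled wild type. The groups were 2 libraries of cells given paroxetine hydrochloride, an inhibitor of serotonin reuptake and a cationic amphiphilic drug, and 2 libraries of cells given DMSO, its solvent. The labels used here give no dose, no exposure time and no statement that the libraries of a group came from separate cultures. The p-values therefore set the group difference against the spread between libraries of a group, which may be technical. That spread was moderated with the other genes tested. A375 is 1 cell line, and every value is an average over all cells of a culture, in which fewer cells of a type and less RNA per cell cannot be told apart.

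LXR is a nuclear receptor that binds DNA together with the retinoid X receptor and is switched on by oxysterols and by desmosterol, which build up when a cell holds much cholesterol. It then raises genes that send cholesterol out of the cell or limit its uptake. SREBP2 works the other way: it is activated when cholesterol in the endoplasmic reticulum is low and raises genes of synthesis and uptake. Cholesterol leaves the cell mainly through the transporters ABCA1 and ABCG1, which load it onto apolipoproteins and high-density lipoprotein.

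The LXR element (DR4) is a direct repeat, searched here as AGGTCA, any 4 bases and AGGTCA again. RefSeq promoter windows of GRCh38.p14, from 250 bases before to 50 bases after a start, were held for 7 of the 9 genes, in 12 windows. ABCG1 and SCARB1 had none in the table. ABCA1 is shown because its window was the only 1 of the 12 with a match on either strand at up to 2 mismatches in the 12 bases compared, and APOE and CYP27A1 because they were the genes that rose. In capitals are the direct repeat of ABCA1, at -69 to -54 from the start and read on the opposite strand as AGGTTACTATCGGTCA, and an E-box (CACGTG, its own reverse complement) at -147 to -142, which does not overlap the repeat. The 3 windows are at chr9:104928106-104928405 on the minus strand (ABCA1), chr19:44905546-44905845 on the plus strand (APOE, the first of its 3 windows) and chr2:218781897-218782196 on the plus strand (CYP27A1).
ABCA1: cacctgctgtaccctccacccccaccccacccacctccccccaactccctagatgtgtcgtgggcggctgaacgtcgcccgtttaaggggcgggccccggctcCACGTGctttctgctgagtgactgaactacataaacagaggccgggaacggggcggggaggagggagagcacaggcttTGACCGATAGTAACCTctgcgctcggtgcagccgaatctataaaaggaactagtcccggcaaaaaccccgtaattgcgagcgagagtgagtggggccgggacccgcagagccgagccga
APOE: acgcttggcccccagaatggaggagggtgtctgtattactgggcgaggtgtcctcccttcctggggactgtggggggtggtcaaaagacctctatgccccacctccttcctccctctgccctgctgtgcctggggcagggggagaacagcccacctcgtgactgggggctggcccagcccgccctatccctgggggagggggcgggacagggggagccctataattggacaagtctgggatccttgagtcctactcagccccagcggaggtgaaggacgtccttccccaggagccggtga
CYP27A1: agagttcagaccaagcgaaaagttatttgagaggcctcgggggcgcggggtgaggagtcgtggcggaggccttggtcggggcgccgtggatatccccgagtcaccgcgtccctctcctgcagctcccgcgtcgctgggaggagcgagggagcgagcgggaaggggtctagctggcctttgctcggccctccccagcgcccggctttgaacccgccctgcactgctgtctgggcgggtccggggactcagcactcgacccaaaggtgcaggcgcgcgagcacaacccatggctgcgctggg
Of 35116 promoter windows of this length in the table, 2.34% held the direct repeat at that tolerance and 7.26% the E-box. A match is a description of the letters. No match says only that they are not in that window, and LXR elements can lie far from a start.

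Expression is given as FPKM, fragments scaled for transcript length and for library size, as the authors deposited it. The test took in 15511 genes that reached 1 FPKM in 2 or more libraries, among them 8 of these 9 genes. Log2 changes are differences of log2(FPKM + 1), paroxetine minus DMSO, ± SE with n = 2 libraries per group, and understate the change of low genes. Genes were called at an adjusted p under 0.05 in limma, with Benjamini-Hochberg adjustment over all genes tested. APOE and CYP27A1 were called higher and 0 of the 8 were called lower (2 of the 8 were lower at an unadjusted p under 0.05, NCEH1 and MYLIP). Of all genes tested, 18.1% were called higher, 20.5% lower and 38.6% in either direction. At an unadjusted p under 0.05, 23.4% were higher, 25.6% lower and 49.1% either, against 4 of the 8 genes in either direction. The median log2 change was -0.05 over the 8 genes and -0.0047 over all genes tested. Both paroxetine libraries lay above both DMSO libraries in 4 of the 8 and below them in 3, against 35.3% and 36.3% of all genes tested.

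Libraries summed to 606197 to 655607 FPKM, and numbers of fragments are not in the table. Depth relative to DMSO replicate 1 was 0.871 to 0.971 in the other 3 libraries. It was estimated from low values of only 60 to 81 genes per library. Mitochondrially encoded genes held 10.9% to 12.4% of FPKM in paroxetine libraries and 12.9% to 13.1% in DMSO libraries. The neural crest and melanoma factor SOX10 was at 275 and 271 FPKM in paroxetine libraries and at 193 and 181 FPKM in DMSO libraries. Other markers of that list went differently: S100B and MIA were called lower, and MITF and S100A1 were not called. The pigment genes PMEL, MLANA, TYR, DCT and TYRP1 were under 1 FPKM in all 4, so the defining pigment markers of a melanocyte were near 0 in this line. Of 7 macrophage and leukocyte markers, 2 passed the filter, CD68 and LYZ. The sum over all 7 was 52.9 to 58.2 FPKM in paroxetine libraries and 24.2 to 26.9 FPKM in DMSO libraries, nearly all of it CD68, a lysosomal glycoprotein gene.

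**Figure D1:**
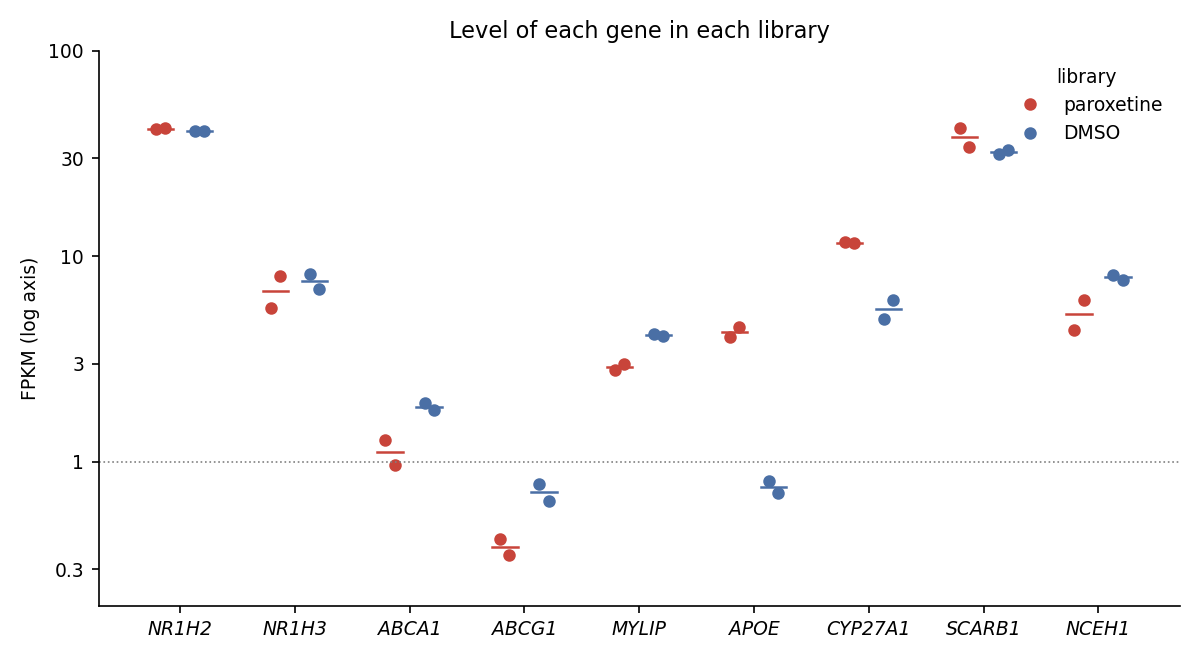
FPKM of each of the 9 genes on a log axis, with 1 point per library (paroxetine left, DMSO right of each gene) and a bar at the mean of 2 libraries; the dotted line marks 1 FPKM. APOE, CYP27A1, SCARB1 and NR1H2 sat higher in both paroxetine libraries, ABCA1, ABCG1, MYLIP and NCEH1 sat lower in both, and NR1H3 overlapped.

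The receptors themselves differed in level and showed no called change. NR1H2 encodes LXR-beta, the form found in most tissues (ENSG00000131408, chromosome 19, 50329653 to 50382982). It was at 41.5 and 42.2 FPKM in paroxetine libraries and at 40.7 and 40.8 FPKM in DMSO libraries. The groups lay close together without overlapping, with a log2 change of 0.04 ± 0.06 (95% interval -0.11 to 0.19; limma adjusted p = 0.648). NR1H3 encodes LXR-alpha, the form known from liver and macrophages (ENSG00000025434, chromosome 11, 47248300 to 47269032). It was at 5.59 and 7.99 FPKM in paroxetine libraries and at 8.18 and 6.92 FPKM in DMSO libraries, so the groups overlapped. The log2 change of NR1H3 was -0.15 ± 0.19 (95% interval -0.62 to 0.33; limma adjusted p = 0.579), and without paroxetine replicate 1 it turned to 0.08. Exons of NR1H3 share 189 bases with ACP2, a lysosomal acid phosphatase gene on the opposite strand, at 11.2 and 11.8 FPKM in paroxetine libraries and 13.9 and 11.8 FPKM in DMSO libraries. The library kit is directional per the labels, but no source used here says whether counting used strand.

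FPKM is scaled for length, so the levels of both receptors can be set beside each other. The ratio of NR1H2 to NR1H3 was 7.42 and 5.28 in paroxetine libraries and 4.97 and 5.90 in DMSO libraries. NR1H2 was thus the more abundant form in every library, and the ratios of the groups overlapped.

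Neither transporter was called, and both had low levels. ABCA1, which passes cholesterol and phospholipid to lipid-poor apolipoprotein A-I (ENSG00000165029, chromosome 9, 104781002 to 104928237), was at 1.28 and 0.964 FPKM in paroxetine libraries and at 1.93 and 1.79 FPKM in DMSO libraries. Both paroxetine libraries lay below both DMSO libraries. The log2 change of ABCA1 was -0.44 ± 0.20 (95% interval -0.94 to 0.07; limma adjusted p = 0.141), and its mean FPKM in paroxetine libraries was 0.602 of that in DMSO libraries. ABCG1, which passes cholesterol to mature high-density lipoprotein (ENSG00000160179, chromosome 21, 42199689 to 42297244), was at 0.422 and 0.352 FPKM in paroxetine libraries and at 0.781 and 0.646 FPKM in DMSO libraries. It stayed under the filter in every library and was not tested, though its groups did not overlap either. With no filter the log2 change of ABCG1 was -0.30 (limma adjusted p = 0.234). The direct repeat in the ABCA1 promoter printed above lies in a gene that was not called.

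MYLIP, also known as IDOL, is a ubiquitin ligase that LXR raises and that marks lipoprotein receptors, VLDLR and LRP8 among them, for degradation (ENSG00000007944, chromosome 6, 16129125 to 16148248). It was at 2.79 and 2.98 FPKM in paroxetine libraries and at 4.21 and 4.08 FPKM in DMSO libraries. The groups did not overlap, and the spread within each was small. The log2 change of MYLIP was -0.40 ± 0.15 (95% interval -0.78 to -0.03; limma adjusted p = 0.0851). Over its 12 alternatives the limma adjusted p of MYLIP ran between 0.0316 and 0.230, with 1 call, in the fit that left out the trend of variance with level. Of these receptors, VLDLR, which binds triglyceride-rich lipoproteins, was at 7.20 and 8.09 FPKM in paroxetine libraries and 4.47 and 5.15 FPKM in DMSO libraries (limma adjusted p = 0.0258), a call lost whenever 1 library was left out and with no filter (0.0675). LRP8, an apolipoprotein E receptor, was at 35.8 and 35.5 FPKM in paroxetine libraries and 33.5 and 34.3 FPKM in DMSO libraries and was not called. These are mRNA levels, while MYLIP acts on the proteins, which were not measured.

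**Figure D2:**
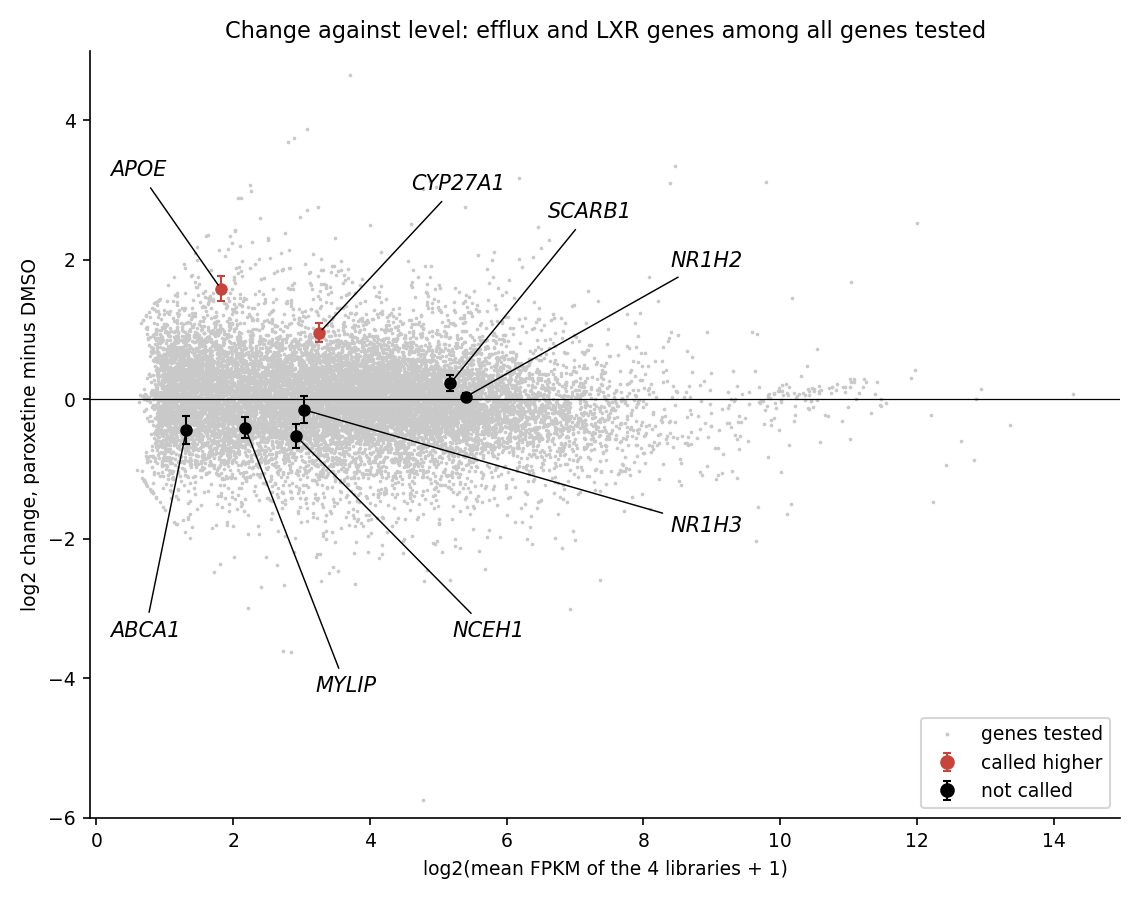
Log2 change (paroxetine minus DMSO, difference of log2(FPKM + 1)) against log2 of the mean FPKM of the 4 libraries plus 1, with grey points for all genes tested and error bars of ± SE for the 8 efflux and LXR genes tested. APOE stands at 1.59 and CYP27A1 at 0.96, while the other 6 lie between -0.53 and 0.23.

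APOE rose most of the 8. It encodes apolipoprotein E, a lipoprotein component that accepts cholesterol and is a known LXR target in macrophages and fat tissue (ENSG00000130203, chromosome 19, 44905754 to 44909393). It was at 4.07 and 4.51 FPKM in paroxetine libraries and at 0.804 and 0.706 FPKM in DMSO libraries. All of its DMSO values were under 1 FPKM, so it passed the filter only through the paroxetine libraries. The mean was 4.29 ± 0.313 FPKM with paroxetine and 0.755 ± 0.0697 FPKM with DMSO (SD, n = 2 each), a ratio of 5.68. The log2 change of APOE was 1.59 ± 0.18 (95% interval 1.14 to 2.04; limma adjusted p = 0.00233). Ranked by change it was higher than in 99.1% of all genes tested, a rank only among genes that passed the filter. APOE was called under each of the 12 alternatives that tested it, but all except the fit with no filter kept that filter. With no filter its limma adjusted p was 0.0138. APOC1, an apolipoprotein gene next to APOE on the same chromosome and a known LXR target as well, was at 4.15 and 3.30 FPKM in paroxetine libraries and 4.58 and 2.27 FPKM in DMSO libraries. Its groups overlapped and it was not called. Macrophages are a common source of APOE. In these libraries CD68 was higher with paroxetine (51.4 and 56.8 FPKM against 25.2 and 21.7 FPKM with DMSO), while LYZ was at 0.983 and 0.882 FPKM in paroxetine libraries and 1.28 and 1.85 FPKM in DMSO libraries and was not called. PTPRC, CD14, CSF1R, CD163 and ITGAM were under 0.4 FPKM in all 4. Their part in the APOE result was not tested.

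CYP27A1, a mitochondrial enzyme that makes an oxysterol ligand of LXR from cholesterol (ENSG00000135929, chromosome 2, 218781749 to 218815293), rose as well. It was at 11.7 and 11.6 FPKM in paroxetine libraries and at 4.94 and 6.12 FPKM in DMSO libraries. The groups were well apart, with the wider spread in DMSO. The mean was 11.6 ± 0.0879 FPKM with paroxetine and 5.53 ± 0.838 FPKM with DMSO (SD, n = 2 each), and the log2 change of CYP27A1 was 0.96 ± 0.13 (95% interval 0.62 to 1.29; limma adjusted p = 0.00477). It was called under all 13 alternatives. CH25H, which makes another oxysterol ligand, and CYP7B1, which breaks oxysterols down, were listed at 0 in all 4 libraries. CYP46A1, the cholesterol hydroxylase of neurons, was at 0.0155 FPKM in paroxetine replicate 1 and at 0 in the others.

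SCARB1 and NCEH1 handle cholesterol at the cell surface and in the ester store. SCARB1 encodes SR-BI, a receptor for high-density lipoprotein through which cholesterol can move either way (ENSG00000073060, chromosome 12, 124776856 to 124882668). It was at 42.2 and 34.2 FPKM in paroxetine libraries and at 31.4 and 33.0 FPKM in DMSO libraries. Paroxetine replicate 2 lay close above the DMSO libraries, and replicate 1 stood higher. The log2 change of SCARB1 was 0.23 ± 0.11 (95% interval -0.05 to 0.52; limma adjusted p = 0.158). It was 0.38 and called without paroxetine replicate 2 (limma adjusted p = 0.0485) and 0.08 without paroxetine replicate 1. Over its 13 alternatives the adjusted p ran between 0.0485 and 0.512.

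NCEH1 encodes a hydrolase that frees cholesterol from its esters in the endoplasmic reticulum (ENSG00000144959, chromosome 3, 172630249 to 172711218). It was at 4.38 and 6.10 FPKM in paroxetine libraries and at 8.13 and 7.69 FPKM in DMSO libraries. Both paroxetine libraries were lower, with a wider spread between them. The log2 change of NCEH1 was -0.53 ± 0.17 (95% interval -0.96 to -0.10; limma adjusted p = 0.0612), the nearest to the threshold of the genes that were lower. It was -0.73 and called without paroxetine replicate 2 (adjusted p = 0.0445) and -0.33 without paroxetine replicate 1 (0.188), and it was called with a minimum of 5 FPKM (0.0456). Over its 13 alternatives the limma adjusted p of NCEH1 ran between 0.0445 and 0.216. LIPA, which frees cholesterol from esters inside lysosomes, rose: it was at 33.3 and 37.6 FPKM in paroxetine libraries and 23.6 and 23.4 FPKM in DMSO libraries (limma adjusted p = 0.00535). SOAT1, which makes the esters, was at 25.8 and 26.3 FPKM in paroxetine libraries and 26.0 and 24.2 FPKM in DMSO libraries and was not called.

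By level in paroxetine libraries the order was NR1H2, SCARB1, CYP27A1, NR1H3, NCEH1, APOE, MYLIP, ABCA1 and ABCG1, and in DMSO libraries NR1H2, SCARB1, NCEH1, NR1H3, CYP27A1, MYLIP, ABCA1, APOE and ABCG1. In paroxetine libraries the values of the neighbours NR1H2 and SCARB1 overlapped, as did those of NR1H3 and NCEH1 and of NCEH1 and APOE. In DMSO libraries NCEH1 and NR1H3 overlapped, as did APOE and ABCG1. APOE stood above MYLIP and ABCA1 with paroxetine and below them with DMSO, and CYP27A1 stood above NR1H3 and NCEH1 with paroxetine and below them with DMSO.

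Genes with the most similar course over the 4 libraries were found by the Euclidean distance between values of log2(FPKM + 1) centred on each gene's mean. The search covered tested genes, leaving out symbols that are clone, locus or LINC names. For APOE these were GOLGA3 (distance 0.0825) and SRP14-AS1 (0.0977), for CYP27A1 FLT3LG (0.0324) and SLC17A9 (0.0453), for ABCA1 ZNF22 (0.0172) and CDK10 (0.0263), and for NCEH1 TRAM1L1 (0.0264) and SOCS2 (0.0535). For MYLIP they were PSME2 (0.00916) and BLOC1S1 (0.0162), for NR1H2 USP19 (0.00438) and TUBB3 (0.0145), for NR1H3 HOXB3 (0.0492) and CMTM3 (0.0553), and for SCARB1 CTC1 (0.0479) and ZNF33A (0.0501). With 4 libraries such likeness can be common, but the numbers differed widely between genes. Of the genes searched, 553 lay within a distance of 0.1 of NR1H2, 284 of MYLIP, 77 of ABCA1 and 61 of SCARB1. The numbers were 25 for NCEH1, 17 for NR1H3, 14 for CYP27A1 and 2 for APOE.

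Of 24 further targets 13 were tested, 4 were called higher and 0 lower in limma (0 also at an unadjusted p under 0.05), with a median log2 change of 0.15. The share called higher was 30.8% of the 13, against 18.1% of all genes tested. The 4 were SCD, a desaturase gene, FASN, fatty acid synthase, ACACA, which makes malonyl-CoA, and TNFAIP3, an inhibitor of NF-kappaB. FASN was at 236 and 232 FPKM in paroxetine libraries and 81.6 and 93.9 FPKM in DMSO libraries, and TNFAIP3 at 14.8 and 15.3 FPKM in paroxetine libraries and 3.86 and 5.29 FPKM in DMSO libraries. SCD, FASN and ACACA are also targets of SREBP factors. Which factor raised any of the 4, TNFAIP3 among them, was not tested. SREBF1, the gene through which LXR raises fatty acid synthesis, was at 62.7 and 57.7 FPKM in paroxetine libraries and 55.7 and 52.6 FPKM in DMSO libraries (log2 change 0.15 ± 0.07; limma adjusted p = 0.148). FPKM is given per gene, so a change in a single transcript form of SREBF1 cannot be read from it. LPCAT3, a phospholipid-remodelling enzyme, was at 29.8 and 33.9 FPKM in paroxetine libraries and 34.5 and 31.4 FPKM in DMSO libraries and was not called. ABCG5 and ABCG8, the sterol transporters of liver and gut, were under 0.1 FPKM in all 4 libraries.

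Of 14 genes of LXR partners, cofactors and related receptors 13 were tested, 5 were called higher and 1 lower. These are 38.5% and 7.69% of the 13, against 18.1% and 20.5% of all genes tested. RXRB, a retinoid X receptor, was at 23.5 and 25.3 FPKM in paroxetine libraries and 20.3 and 17.8 FPKM in DMSO libraries (limma adjusted p = 0.0392). That call was lost whenever 1 library was left out, and also with the replicate block (0.0633), with no filter (0.0860) or with no variance trend (0.0780). RXRA was at 7.96 and 8.24 FPKM in paroxetine libraries and 8.12 and 7.53 FPKM in DMSO libraries and was not called. PPARA, a fatty acid receptor, was at 7.55 and 6.61 FPKM in paroxetine libraries and 3.13 FPKM in both DMSO libraries (limma adjusted p = 0.00544). PPARG, which acts upstream of LXR-alpha in macrophages, was the gene that fell, at 28.0 and 29.7 FPKM in paroxetine libraries and 40.8 and 35.6 FPKM in DMSO libraries (limma adjusted p = 0.0215). That call was lost without paroxetine replicate 1, paroxetine replicate 2 or DMSO replicate 1 (limma adjusted p = 0.0676 to 0.104), and also with no filter (0.0581) or no variance trend (0.0589). The coactivator genes NCOA1, NCOA6 and PPARGC1A were also called higher. PPARGC1A was at 2.25 and 1.63 FPKM in paroxetine libraries and 0.730 and 0.512 FPKM in DMSO libraries, so it passed the filter only through the paroxetine libraries, and it was not called with no filter (limma adjusted p = 0.0741). The calls of NCOA6 and PPARGC1A were lost whenever 1 library was left out, and that of NCOA1 without paroxetine replicate 1 or DMSO replicate 1 (limma adjusted p = 0.0519 and 0.0502).

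**Figure D3:**
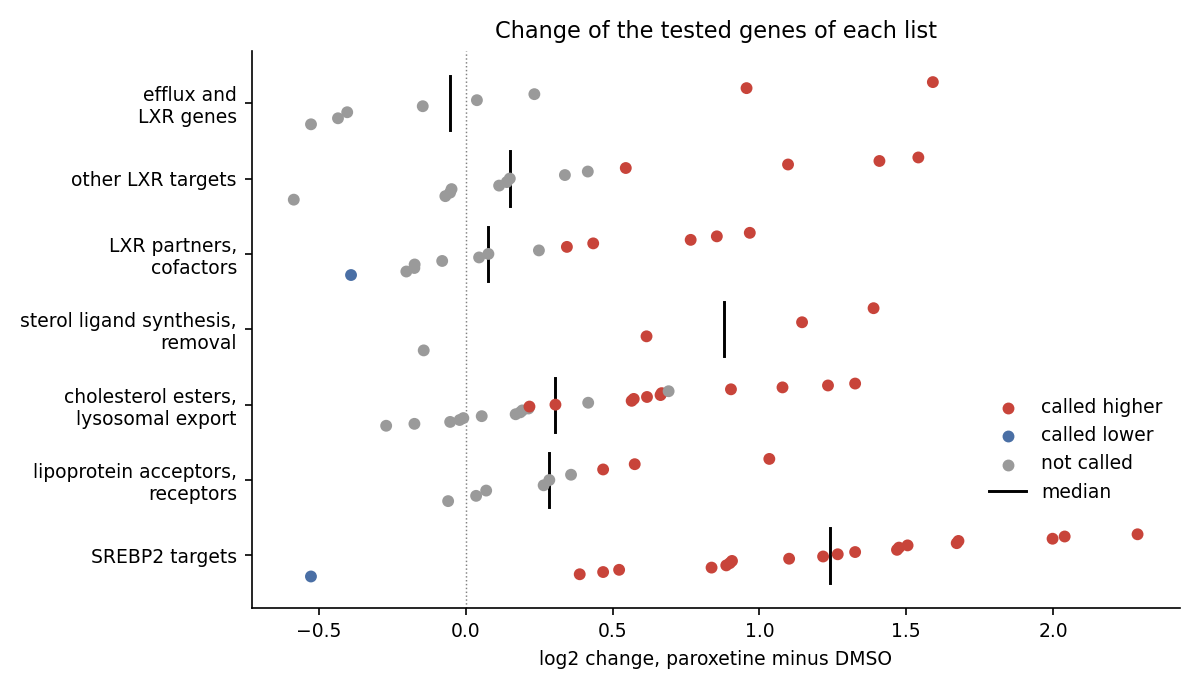
Log2 change (paroxetine minus DMSO) of every tested gene of each list, 1 point per gene, red where called higher, blue where called lower and grey where not called, with a black bar at the median. The efflux and LXR genes lie on both sides of 0, while 19 of the 20 SREBP2 targets are called higher.

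SREBP2 targets rose together. Of 20 such genes 19 were called higher and PMVK, a mevalonate pathway kinase gene, was called lower, with a median log2 change of 1.24. The PMVK call was lost without paroxetine replicate 1, paroxetine replicate 2 or DMSO replicate 1 (limma adjusted p = 0.0566 to 0.0645). INSIG1, which holds the SREBP complex back, was at 164 and 160 FPKM in paroxetine libraries and 31.5 and 33.4 FPKM in DMSO libraries. HMGCS1, an early enzyme of cholesterol synthesis, was at 135 and 132 FPKM in paroxetine libraries and 30.6 and 32.7 FPKM in DMSO libraries. In the list of sterol ligand enzymes, 3 of the 4 tested genes were called higher, among them DHCR7 and EBP, which also belong to cholesterol synthesis. No test compared these lists with the efflux genes, and the counts are given side by side. Over all genes tested, 18.1% were called higher and 20.5% lower.

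Genes that store cholesterol esters or bring cholesterol out of lysosomes rose or were not called. Of 28 genes of cholesterol esters, droplets and lysosomal export 23 were tested, 11 were called higher and 0 lower in limma (1 lower at an unadjusted p under 0.05), with a median log2 change of 0.31. Calls of higher made up 47.8% of the 23, against 18.1% of all genes tested. NPC2, which hands cholesterol to NPC1 in the lysosome, was at 128 and 121 FPKM in paroxetine libraries and 76.0 and 80.2 FPKM in DMSO libraries (limma adjusted p = 0.00131). NPC1, the membrane protein of that step, was at 74.0 and 73.6 FPKM in paroxetine libraries and 36.4 and 32.6 FPKM in DMSO libraries (limma adjusted p = 0.000647). PLIN2, a coat protein gene of lipid droplets, was at 336 and 357 FPKM in paroxetine libraries and 152 and 142 FPKM in DMSO libraries. OSBP, which exchanges cholesterol between endoplasmic reticulum and Golgi, was at 42.4 and 41.7 FPKM in paroxetine libraries and 21.5 and 22.5 FPKM in DMSO libraries. Of 17 lipoprotein acceptor and receptor genes 9 were tested, 3 rose and 0 were called lower (0 also at an unadjusted p under 0.05). With so few genes tested, the 33.3% called higher is a rough figure to set beside 18.1% of all genes. APOA1, the main acceptor for ABCA1, was listed at 0 in both paroxetine libraries and in DMSO replicate 2, and was under the filter in DMSO replicate 1. LRP1, a receptor for apolipoprotein E, was at 25.5 and 27.9 FPKM in paroxetine libraries and 12.3 and 12.7 FPKM in DMSO libraries (limma adjusted p = 0.00105).

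**Figure D4:**
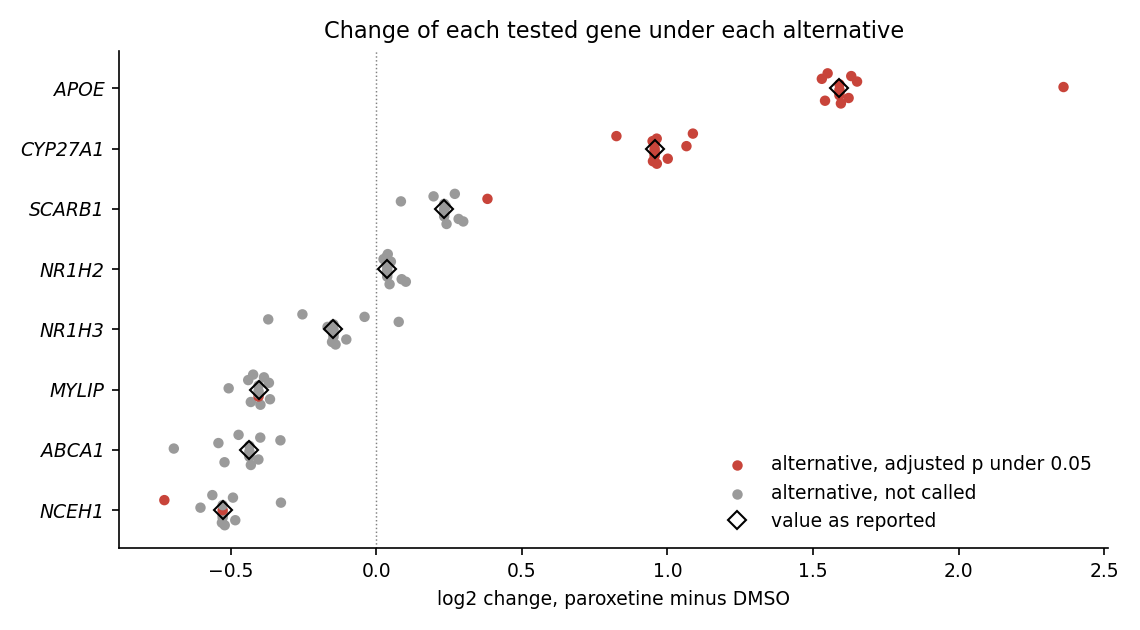
Log2 change (paroxetine minus DMSO) of the 8 tested genes under each alternative way of processing, 1 point per alternative, red where the adjusted p is under 0.05 and grey where not, with an open diamond at the value as reported. APOE and CYP27A1 are red throughout, SCARB1, MYLIP and NCEH1 are red in 1 or 2 alternatives, and NR1H3 lies on both sides of 0.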

How the data were processed

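RNA was sequenced from 4 A375 samples (paroxetine hydrochloride, 2 libraries; DMSO, 2 libraries) after depletion of ribosomal RNA, with a directional kit and paired ends, per the labels' protocols. The authors deposited FPKM per gene. Per the submitters' processing notes, CASAVA 1.4, HISAT2 2.1.0 and Cufflinks 2.2.1 were used with hg38. The order, options, annotation, scaling between libraries and treatment of multi-mapping reads are stated in no source used here. The 4 FPKM columns were matched to samples by name. The 12 other per-sample columns (bounds and status) were not used. Of 60595 identifiers, 58520 were in GENCODE release 29, the source of gene coordinates (GRCh38). Symbols turned into dates (27) were restored by identifier.

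The fit on log2(FPKM + 1) used limma 3.58.1 in R 4.3.3 with the mean-variance trend, 2 residual and 3.32 prior degrees of freedom, two-sided, on 15511 genes. An exact permutation test of 2 against 2 libraries cannot go below p = 0.333, so none is given. The genes and lists were chosen with earlier results of these data known. All 9 genes are named. From each further list up to 5 called genes with the largest change, or those that a sentence needs, could be named. Some items are not reported here. APOC1, PMVK, APOA1, CH25H, CYP7B1, CYP46A1, TFEB, MITF and the marker genes were named after their values were seen. Alternatives were trimmed-mean (30% of log ratios, 5% of means) and quantile scaling, rescaling without mitochondrially encoded genes, limma without trend or with robust variances, a minimum of 5 FPKM or none, a pseudocount of 0.1, the replicate number as a block, and each library left out. Python 3.11.15, pandas 2.3.3 and matplotlib 3.10.9 made tables and figures.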

Additional observations from a re-analysis of the deposited data

How the results depend on the processing

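Without 1 library, 1442 to 1539 genes were called higher (2811 with all 4) and 1773 to 2221 lower (3184 with all 4). Over the 8 efflux and LXR genes, 2 to 3 were called higher without 1 library, and 1 with a minimum of 5 FPKM, which leaves out APOE. The number called lower was 0 to 1 without 1 library, 1 without the mean-variance trend (MYLIP) and 1 with a minimum of 5 FPKM (NCEH1). Of the genes of the further lists, 2 were called lower with all 4 libraries, 1 without the trend, 1 with no filter and 0 to 2 without 1 library, and 33 to 36 against 44 were called higher without 1 library. The mean ratio of NR1H2 to NR1H3 differed between groups by 0.913 with all 4 libraries and by -0.154 to 1.98 without 1 library. The direction turned for uncalled changes only: NR1H3 spanned -0.371 to 0.0771, RXRA -0.00294 to 0.0930, APOC1 -0.25 to 0.52 and LPCAT3 -0.138 to 0.0404 without 1 library, and LPCAT3 was 0.0157 with quantile normalization and 0.000542 rescaled without mitochondrially encoded genes. The cause was not tested. Without 1 library, the group left with 1 library is assumed to vary like the other. With replicate number as a replicate block, 2492 genes were called higher and 2883 lower, and the counts among the efflux and LXR genes were 2 and 0. Deviations of same-numbered libraries correlated at r = -0.0425 across genes, so the numbers were not read as pairs. Fragment numbers are not known and the deposited bounds were not used. No counting error is therefore given for ABCG1, ABCA1 or the DMSO values of APOE. No scaling moved the median log2 change of all genes past 0.04.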

Other observations

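Among the MiT/TFE transcription factors, which govern lysosomal genes, TFE3 was at 40.7 and 42.9 FPKM in paroxetine libraries and 27.4 and 28.0 FPKM in DMSO libraries (log2 change 0.58 ± 0.07; limma adjusted p = 0.00254). TFEB was at 1.86 and 1.84 FPKM in paroxetine libraries and 0.806 and 1.25 FPKM in DMSO libraries, and MITF at 5.36 and 5.98 FPKM in paroxetine libraries and 7.23 and 7.73 FPKM in DMSO libraries, and neither was called. Of 6 epithelial and keratinocyte markers 3 passed the filter, KRT8, KRT18 and KRT14, and all 3 were called lower, with KRT18 at 108 and 126 FPKM in paroxetine libraries and 194 and 187 FPKM in DMSO libraries. Of 5 fibroblast markers 2 passed, and PDGFRB was called higher, at 5.46 and 3.99 FPKM in paroxetine libraries and 2.82 and 2.52 FPKM in DMSO libraries. Of 10 melanoma and melanocyte markers 5 passed the filter. SOX10 was called higher, MITF and S100A1 were not called, and S100B and MIA were called lower. S100B was at 1.89 and 2.70 FPKM in paroxetine libraries and 5.09 and 6.66 FPKM in DMSO libraries, and MIA at 139 and 152 FPKM in paroxetine libraries and 321 and 264 FPKM in DMSO libraries.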
